A study of Mus musculus with 10 samples.

Results

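The genes described here lie on mouse chromosome 7 around *Fgfr2*, which encodes the FGF receptor that the mutation targets. The set holds every row of the deposited gene table that starts between chr7:128500000 and chr7:134500000, without *Fgfr2* itself, which makes 57 of the 23080 genes listed. The table gives *Fgfr2* a span of chr7:130162451-133123350, and 38 of the 57 genes start inside it, while 10 start before it and 9 after it. RNA was sequenced from the anterior fontanelle (AF), the membranous gap between the frontal and parietal bones, dissected at E18.5. Suture mesenchyme and bone were sampled together, so the RNA is a mixture from both. By the study's account, skin and brain were left out of the dissection. The control group holds 5 libraries labelled WT, which the study calls littermates. It also speaks of pairs of littermates for these libraries, but the labels do not say which libraries pair. The mutant group holds 5 libraries of *Wnt1-Cre; Fgfr2fl/fl* embryos, in which Cre, expressed in neural crest cells, recombines both floxed copies of *Fgfr2* and is meant to leave no working receptor there. Cells of other origin in the excised tissue keep the receptor, and the labels do not say whether each library came from 1 embryo, so p-values measure only the spread between these libraries.

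FGF receptors are receptor tyrosine kinases that pass FGF signals to the skeletal progenitors of the calvaria. Neighbouring genes on a chromosome can share regulatory DNA, and a transcript annotation can also join reads of neighbouring genes into 1 model. The genes next to *Fgfr2* serve mostly unrelated purposes, among them protein arginylation (*Ate1*), transcriptional corepression (*Ctbp2*), mitotic control (*Bub3*) and proteolysis of the extracellular matrix (*Htra1*, *Adam12*). The comparison asks whether these genes differed between the groups, and whether genes inside the span differed from those beside it.

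The long span of *Fgfr2* came from a single transcript model. GENCODE M21, whose GRCm38 coordinates are those of the table for 56 of the 57 genes (*D7Ertd443e* has another end there), lists 27 *Fgfr2* transcripts on the minus strand, of which 26 end at or before chr7:130266263. The remaining model, Fgfr2-217, has 7 exons, is given a transcript support level of 5 (the lowest that GENCODE uses), and reaches chr7:133123350. Its long intron, chr7:130172940-133081756, measures 2908817 bases, and 36 of the 38 genes inside the span lie wholly in that intron, the exceptions being *Ctbp2* and B930086L07Rik. None of the 57 genes overlapped any of the other *Fgfr2* transcripts, and the RefSeq entry for *Fgfr2* in GRCm38.p6 covers 104358 bases, chr7:130162451-130266808. Of the 38 genes, 21 are on the same strand as *Fgfr2* and 17 on the opposite strand.

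At its far end Fgfr2-217 uses exons of *Ctbp2*, the only coding neighbour that shares exon bases with *Fgfr2*. Its first exon, chr7:133123141-133123350 (210 bases), and its second exon, chr7:133081757-133081860 (104 bases), lie entirely on annotated *Ctbp2* exons in the untranslated region. These 314 shared bases make up 3.04% of the annotated exon bases of *Fgfr2* (10328) and 5.05% of those of *Ctbp2* (6220). The exon joins below are printed 5′ to 3′ on the minus strand, 15 bases on each side, with the *Ctbp2* exon in capitals, because they show which reads could be given to either gene.
Fgfr2-217: GACGCATTTCTATCGtgtatccatcgagat
Fgfr2-215: ttggcttcccaaaaatgtatccatcgagat
Ctbp2-201: GACGCATTTCTATCGggttcatagtggcgc
Fgfr2-217 joins the *Ctbp2* exon to the *Fgfr2* exon at chr7:130172817-130172939. Fgfr2-215, a model that stays within the *Fgfr2* gene proper, enters that same exon from chr7:130177675-130177865. Ctbp2-201 leaves the exon at chr7:133081757-133081860 for chr7:133025713-133025872. A read that lies within the exons in capitals therefore matches both genes, while a read across a join can match 1 gene alone. How the deposited counts were divided between overlapping genes is not given in the sources used here.

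Sequencing depth was 20774667 to 28515434 estimated counts per library, with 18.6% to 33.5% of them on the ribosomal RNA gene CT010467.1. Values below are TMM-normalized counts scaled to library size (CPM), and fold changes are log2 values from edgeR's quasi-likelihood test, mutant-labelled over control-labelled. Summed osteoblast markers stood at 66150 to 77780 CPM in controls and at 54130 to 78490 CPM in mutants (by label). Most of each sum was *Col1a1*, at 58750 to 70340 CPM and 48580 to 71270 CPM, so the overlap is mainly that of 1 gene. Of the 10 markers, 6 were lower at an unadjusted p under 0.05 (3.82% of all genes). Of 6 markers of fontanelle connective tissue, 4 were higher by the same measure (3.68% of all genes). A library labelled mutant, replicate 2, stood apart in 5 neuron markers, which summed to 332.1 CPM against 39.2 to 132 CPM in the other 9 libraries, and 1 of the 5, *Rbfox3*, was higher in the mutant group at an unadjusted p under 0.05 (edgeR adjusted p = 0.631). Skeletal muscle markers summed to 846 CPM in control-labelled replicate 2 and 887 CPM in mutant-labelled replicate 1, against as little as 23.6 CPM elsewhere. In bulk tissue, fewer cells of a type and less RNA per cell cannot be told apart.

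*Fgfr2*, the targeted gene, had a higher count over the whole gene in the libraries labelled mutant. Its level was 200.2, 235, 176, 195 and 192 CPM in control-labelled replicates 1 to 5, and 299, 273, 325, 338 and 357 CPM in mutant-labelled replicates 1 to 5. Every mutant-labelled library lay above every control-labelled library. The log2 fold change was 0.67 (SE 0.0902, 95% interval 0.48 to 0.87, edgeR adjusted p = 0.0487), and the exact permutation p was 0.00794, the smallest that 5 against 5 libraries allow. Without 1 library the log2 fold change ranged from 0.63 to 0.75, and the adjusted p was above 0.05 in 8 of 10 such fits (0.009 to 0.26), staying under it without control-labelled replicate 2 or mutant-labelled replicate 2. The adjusted p was also above 0.05 with the replicate block (0.427), with library size alone (0.152), with no filter on low counts (0.0557) and with *Xist* as a covariate (0.0625), at log2 fold changes of 0.63 to 0.68. A count over the whole gene includes reads outside the recombined exons, so it checks neither the recombination nor the labels. Groups are therefore called by their labels, and the directions given for the neighbours rest on those labels.

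Expression of the neighbours covered a wide range. The filter on low counts passed 39 of the 57 genes (26 inside the span, 6 before it and 7 after it), and 32 of these 39 encode proteins. The other 18 had a mean of at most 0.391 CPM and at most 14 counts in any library. Most of them are pseudogenes or noncoding transcripts, and the homeobox genes *Hmx2* and *Nkx1-2* and the phosphatase gene *Plpp4* were also among them. A further 6 genes passed with a mean under 1 CPM. Per kilobase of annotated exon, the highest level among the neighbours in control-labelled libraries belonged to *Htra1*, a secreted serine protease, at 64.3 CPM per kb. Next came *Oat*, the mitochondrial ornithine aminotransferase, at 48.9 CPM per kb, ahead of *Fgfr2* at 19.3 CPM per kb. *Bag3*, a co-chaperone of selective autophagy, stood at 16.7 CPM per kb, *Cpxm2* at 14.4 CPM per kb and *Adam12* at 13.2 CPM per kb.

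None of the 39 tested neighbours had an edgeR adjusted p under 0.05, where 3 of all 16267 genes tested did (0.0184%). At an unadjusted p under 0.05, 4 neighbours (10.3%) were called against 7.49% of all genes. *Cpxm2* and Gm45501 were higher (background 3.68%) and *Chst15* and *Adam12* lower (background 3.82%). DESeq2's Wald test called 1 neighbour at an adjusted p under 0.05, *Cpxm2* (adjusted p = 0.00143), where it called 95 of the 17658 genes to which it gave an adjusted p (0.538%). With limma voom no neighbour was called at an adjusted p under 0.05, against 3 of all 16267 genes (0.0184%). Groups did not overlap for 1 neighbour, *Cpxm2* (2.56%), against 1.48% of all genes, of which 0.781% were higher and 0.701% lower in mutant-labelled libraries. Both shares rest on few genes and lie near the background.

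Fold changes of the neighbours were small and centred near 0. Their median log2 fold change was 0.04, against 0.00 over all genes tested, and their median absolute log2 fold change was 0.09, as over all genes (0.09). For 21 of the 39, the estimate lay within 0.1 of 0. The *Fgfr2* estimate of 0.67 lay above the upper 95% bound of 32 neighbours. The 7 whose intervals reached it were *Cpxm2* and 6 genes of low level, *Gpr26*, Gm4265, Gm5903, Gm44891, Gm45501 and B930086L07Rik.

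**Figure D1:**
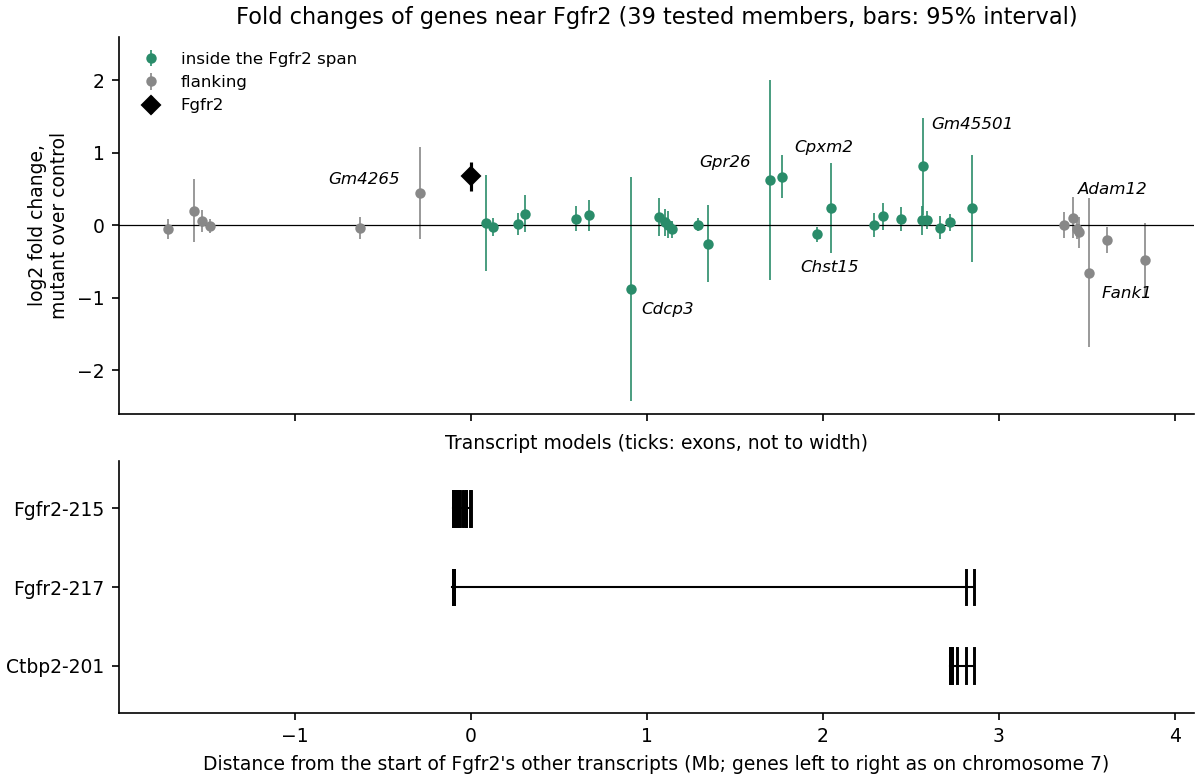
Upper panel: log2 fold change (mutant-labelled over control-labelled, n = 5 each) of the 39 tested neighbours and *Fgfr2* against distance in Mb from the start of the 26 shorter *Fgfr2* transcripts, with 95% intervals from edgeR. Lower panel: exons of 3 transcript models. Most neighbours sit near 0, *Cpxm2* at 0.67 is level with *Fgfr2* at 0.67, and wide bars mark genes of low level.

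Inside the span, 20 of 26 tested genes had a positive log2 fold change (76.9%, against 50.3% of all genes), with a median of 0.06 and a range of -0.88 to 0.82. Beside the span, 5 of 13 were positive (38.5%), with a median of -0.04 and a range of -0.66 to 0.45. On the strand of *Fgfr2*, 12 of 15 genes inside the span were positive (median 0.04), and on the opposite strand 8 of 11 were (median 0.08). The 6 flanking genes before the span had a median of 0.03 and the 7 after it a median of -0.09. Both medians are differences of under 0.1 log2 units and no test of the sets was made. All neighbours come from the same tissue mixture and some share exon bases with another gene, so the shares are descriptions. Among genes with a mean of at least 1 CPM the median inside the span was 0.04. The share of positive values depends on the scaling. With library size alone, at least Gm5903, *Nsmce4a*, *Oat* and *Bub3* inside the span turned negative. The median inside was then 0.018, with all genes at -0.038.

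**Figure D2:**
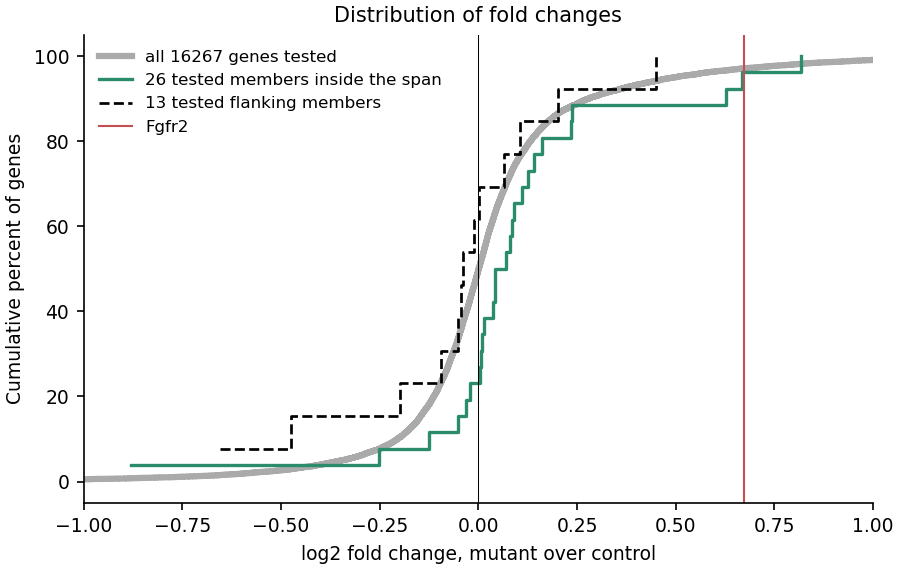
Cumulative percent of genes (vertical axis) at or below each log2 fold change, mutant-labelled over control-labelled (horizontal axis, drawn from -1 to 1). The line for the 26 genes inside the span runs slightly to the right of all 16267 genes, with medians of 0.06 and 0.00, and the 13 flanking genes run slightly to the left, with a median of -0.04.

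*Wdr11* and *Ate1* are the nearest expressed coding genes on either side of the *Fgfr2* gene proper, and neither passed the test. *Wdr11*, a WD repeat protein of vesicle traffic, was at 34.7, 38.1, 33.7, 34.9 and 33.5 CPM in control-labelled replicates 1 to 5 and at 36.2, 28.7, 35.1, 36.1 and 34.4 CPM in mutant-labelled replicates 1 to 5. The groups overlapped, with only mutant-labelled replicate 2 below all controls, and the log2 fold change was -0.04 (95% interval -0.19 to 0.11, edgeR adjusted p = 0.934, exact permutation p = 0.675). *Ate1*, the arginyltransferase that marks proteins for degradation, was at 25.3, 23.3, 22.6, 23.1 and 23.8 CPM in control-labelled replicates and at 20.8, 22.8, 24.99, 23.8 and 23.9 CPM in mutant-labelled replicates. Mutant-labelled replicate 1 lay below all controls and the other 4 overlapped them, with a log2 fold change of -0.02 (95% interval -0.15 to 0.11, edgeR adjusted p = 0.955, exact permutation p = 0.69). Closer still, the predicted transcript Gm4265 was at 0.63, 0.72, 0.6, 0.98 and 1.27 CPM in control-labelled replicates 1 to 5 and at 0.93, 0.83, 1.16, 1.79 and 1.02 CPM in mutant-labelled replicates 1 to 5. The groups overlapped, with a log2 fold change of 0.45 (edgeR adjusted p = 0.744), which was 0.65 without control-labelled replicate 5 (unadjusted p = 0.0453) and 0.24 without mutant-labelled replicate 4. The pseudogene Gm5903 was at 0.33, 0.75, 0.64, 0.57 and 0.89 CPM in control-labelled and at 0.74, 0.87, 0.43, 0.51 and 0.71 CPM in mutant-labelled replicates, with full overlap (edgeR adjusted p = 0.986).

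Within each library the ratio of *Fgfr2* to a neighbour does not depend on the scaling between libraries, though with a neighbour that differed little it restates the *Fgfr2* difference, so the ratios are given with no test. The log2 ratio of *Fgfr2* to *Wdr11* was 2.51 ± 0.09 (SD, n = 5) under the control label and 3.22 ± 0.12 under the mutant label, and that to *Ate1* was 3.07 ± 0.15 and 3.77 ± 0.13. The log2 ratio of *Fgfr2* to *Cpxm2* was 1.59 ± 0.31 and 1.61 ± 0.26, a difference of 0.02.

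*Ctbp2*, the corepressor gene whose exons Fgfr2-217 uses, did not follow *Fgfr2*. Its level was 29.5, 30.4, 31.9, 31.6 and 29.8 CPM in control-labelled replicates 1 to 5 and 30.0, 32.2, 34.4, 29.1 and 32.2 CPM in mutant-labelled replicates 1 to 5. The groups overlapped, with a log2 fold change of 0.04 (SE 0.0545, 95% interval -0.08 to 0.16, edgeR adjusted p = 0.889, exact permutation p = 0.429). All 10 of its estimated counts were fractional (tolerance 1e-06), as were all 10 of *Fgfr2*, and 9 of 10 in each gene were over 0.1 from a whole number. Fractional values were not particular to this pair: 22 of the 39 tested neighbours held some, 8 of them in at least 9 libraries, and *Adam12*, Gm5903 and Gm16477 were, like *Ctbp2*, over 0.1 from a whole number in most libraries. The other 17 had whole values in every library. Of the summed counts of *Ctbp2* and *Fgfr2*, *Ctbp2* held 12.9%, 11.5%, 15.4%, 13.9% and 13.5% in control-labelled replicates and 9.13%, 10.5%, 9.57%, 7.93% and 8.28% in mutant-labelled replicates. Every mutant-labelled share lay below every control-labelled share, which restates the difference in *Fgfr2*.

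A group of matrix, secreted and cell-surface genes was made up of *Htra1*, *Cpxm2*, *Adam12* and *Chst15*, the last a Golgi enzyme that modifies matrix proteoglycans. All 4 were tested, with 2 positive and 2 negative log2 fold changes and a median of 0.01. An unadjusted p under 0.05 was reached by 3 of them, against 7.49% of all genes, but this small group was put together with earlier results of these data known, so its count supports no theme.

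*Cpxm2* encodes a secreted carboxypeptidase-like protein with a discoidin domain that lacks clear enzyme activity. The gene lies in the long intron of Fgfr2-217 on the same strand, far from either end. Its level was 75.8, 55.2, 63.4, 60.7 and 77.9 CPM in control-labelled replicates 1 to 5 and 100.3, 85.8, 122, 133 and 88.6 CPM in mutant-labelled replicates 1 to 5. All 5 mutant-labelled libraries lay above the highest control-labelled library, on 1486 to 3117 counts per library. Means were 66.6 ± 9.83 and 106 ± 20.6 CPM (SD, n = 5), a log2 fold change of 0.67 (SE 0.136, 95% interval 0.37 to 0.97, edgeR adjusted p = 0.187, exact permutation p = 0.00794). Leaving out each library in turn kept the log2 fold change between 0.58 and 0.74 and the unadjusted p under 0.05 in all 10 fits, with edgeR adjusted p-values from 0.155 to 0.564. *Cpxm2* shares 351 exon bases with the antisense transcript Gm15677, which did not pass the filter. Of the 6 markers of fontanelle connective tissue, 4 were also higher at an unadjusted p under 0.05 and 0 lower. The part of tissue composition in the *Cpxm2* difference was not tested.

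*Chst15*, a sulfotransferase that sulfates chondroitin sulfate chains, was at 42.0, 44.3, 46.4, 45.7 and 41.6 CPM in control-labelled replicates 1 to 5 and at 39.5, 39.2, 42.0, 41.3 and 39.9 CPM in mutant-labelled replicates 1 to 5. Of the mutant-labelled libraries, 4 lay below the lowest control-labelled library. The log2 fold change was -0.12 (SE 0.048, 95% interval -0.23 to -0.02, edgeR adjusted p = 0.631, exact permutation p = 0.0238). *Adam12*, a metalloprotease of the membrane that is expressed in growing bone and muscle, lies beyond the span and had a log2 fold change of -0.20 (SE 0.0825, 95% interval -0.38 to -0.02, edgeR adjusted p = 0.643, exact permutation p = 0.0635). Its level was 139, 123, 139, 151 and 146 CPM in control-labelled replicates and 128, 105, 134, 110.0 and 132 CPM in mutant-labelled replicates. The groups overlapped, with mutant-labelled replicates 2 and 4 the lowest. Unadjusted p-values stayed under 0.05 in 5 of 10 fits without 1 library for *Chst15* (p from 0.0173 to 0.0857) and in 4 of 10 for *Adam12* (p from 0.0136 to 0.0884), and both were above it without control-labelled replicate 3, control-labelled replicate 4 or mutant-labelled replicate 2.

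*Htra1*, which cleaves matrix proteins and binds TGF-β family ligands, was at 206, 174, 163, 191 and 191 CPM in control-labelled replicates 1 to 5 and at 192, 162, 237, 219.5 and 208 CPM in mutant-labelled replicates 1 to 5. Mutant-labelled replicates 3, 4 and 5 lay above all controls and replicate 2 below them. The log2 fold change was 0.14 (SE 0.0992, 95% interval -0.08 to 0.36, edgeR adjusted p = 0.777, exact permutation p = 0.246). It was 0.22 without mutant-labelled replicate 2 (edgeR adjusted p = 0.591) and 0.22 with a neuron score, the mean log2 CPM of the neuron markers, as a covariate (edgeR adjusted p = 0.494), in both cases with an unadjusted p under 0.05. Without mutant-labelled replicate 3 it was 0.09 (edgeR adjusted p = 0.867).

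**Figure D3:**
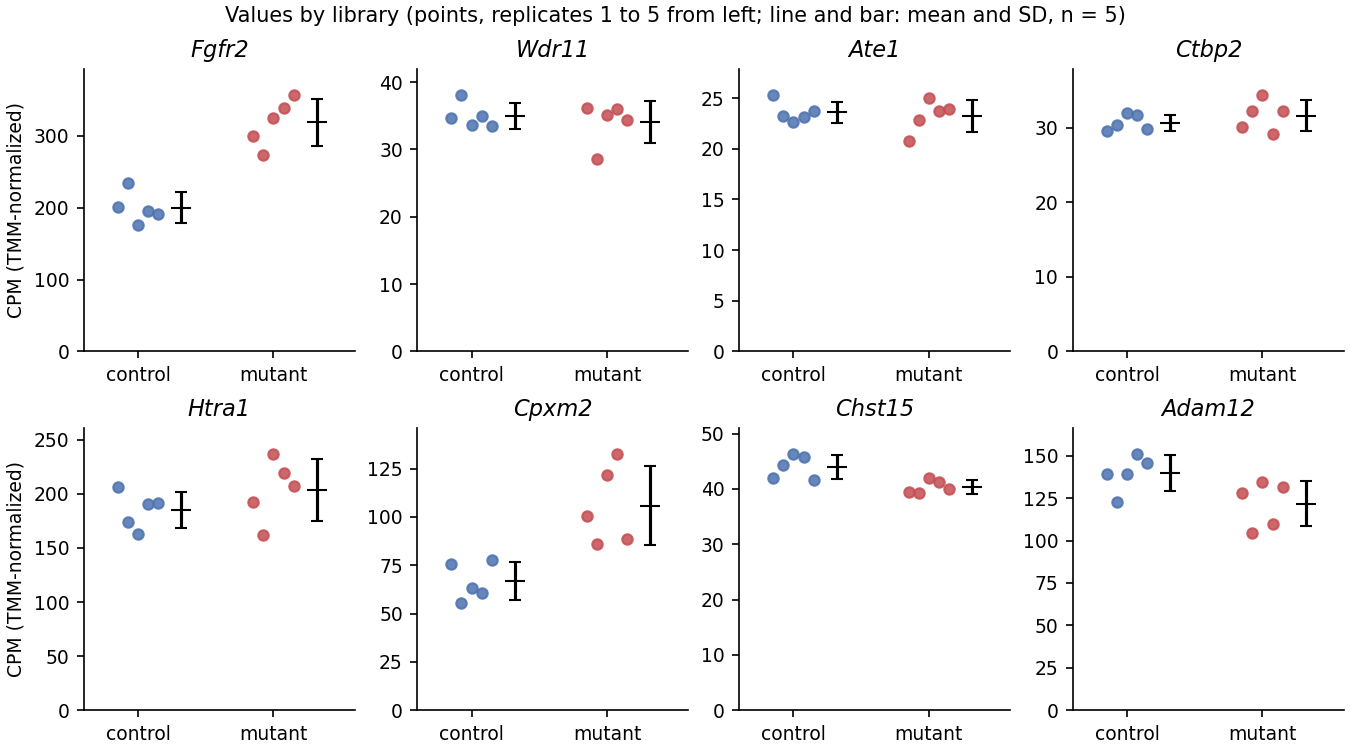
CPM in each library (points, replicates 1 to 5 from left) with the mean and SD of 5 libraries, for *Fgfr2* and 7 neighbours, each panel starting at 0. *Fgfr2* and *Cpxm2* separate the groups, with *Cpxm2* at 55.2 to 77.9 CPM under the control label and 85.8 to 133 CPM under the mutant label, while *Wdr11*, *Ate1*, *Ctbp2*, *Htra1*, *Chst15* and *Adam12* overlap.

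Of 12 genes of the nucleus, transcription, DNA repair and cell cycle, 10 were tested and none was called at an unadjusted p under 0.05, where 7.49% of all genes were, so a count of 0 among so few is near the background. Without mutant-labelled replicate 4, *Fam53b* was called. Their log2 fold changes ran from -0.05 to 0.09 with a median of 0.01. *Bub3*, of the spindle checkpoint, was at 32.9 to 33.6 CPM under the control label and 32.3 to 35.1 CPM under the mutant label, a log2 fold change of 0.01 (95% interval -0.08 to 0.10). *Nsmce4a*, a subunit of the SMC5/6 complex, had a log2 fold change of 0.02 (95% interval -0.13 to 0.16) and *Zranb1*, a deubiquitinase, one of -0.03 (95% interval -0.19 to 0.13). Among 8 enzymes of metabolism and protein modification, 7 were tested and none was called (7.49% of all genes), and log2 fold changes ran from -0.05 to 0.13. *Oat* averaged 115 CPM in controls and 115.5 CPM in mutants by label, with a log2 fold change of 0.00 (95% interval -0.17 to 0.17). *Acadsb*, which oxidizes branched-chain acyl-CoA, was at 35.2 to 41.2 CPM and 35.3 to 39.7 CPM, and its log2 fold change was -0.05.

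A mixed group of 9 genes, mainly of traffic, cytoskeleton, chaperone and signalling but also with the RNA helicase gene *Dhx32* and *Fank1*, was tested in full, and none was called (7.49% of all genes). *Bag3* was at 43.9, 40.8, 38.7, 46.2 and 44.2 CPM in control-labelled replicates 1 to 5 and at 42.8, 37.6, 44.6, 42.2 and 39.1 CPM in mutant-labelled replicates 1 to 5. These overlapped, with a log2 fold change of -0.05 (95% interval -0.19 to 0.09, edgeR adjusted p = 0.888, exact permutation p = 0.452). *Plekha1*, a phosphoinositide-binding adaptor, had a log2 fold change of 0.09 and *Tacc2*, a microtubule-associated protein, one of 0.16, with edgeR unadjusted p-values of 0.28 and 0.196. Without control-labelled replicate 2, the highest library for *Tacc2*, its value was 0.27 (edgeR adjusted p = 0.526), with an unadjusted p under 0.05. *Fank1*, a gene best known from testis, was at most 0.94 CPM in any library and had a log2 fold change of -0.66 (SE 0.469), which ranged from -0.39 without control-labelled replicate 3 to -0.91 without control-labelled replicate 1 (edgeR adjusted p = 0.603, unadjusted p under 0.05).

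*Gpr26*, an orphan receptor known from brain, and *Inpp5f*, a phosphoinositide phosphatase abundant in neurons, were high in the library with the most neuron marker RNA. *Gpr26* was at 1.93, 2.06, 1.32, 0.45 and 1.48 CPM in control-labelled replicates 1 to 5 and at 1.67, 6.88, 0.68, 1.28 and 0.66 CPM in mutant-labelled replicates 1 to 5. Its log2 fold change was 0.63 (SE 0.632, edgeR adjusted p = 0.854) with all libraries and -0.43 without mutant-labelled replicate 2. *Inpp5f* was at 37.0 CPM in that library and at 15.98 to 23.9 CPM in the other 9, with a log2 fold change of 0.20 with it and -0.03 without it. All 5 neuron markers were detected in every library, among them *Rbfox3* at 12.4 CPM in that library and 1.51 to 5.83 CPM in the others. The part of the neuron marker RNA in these differences was not tested.

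**Figure D4:**
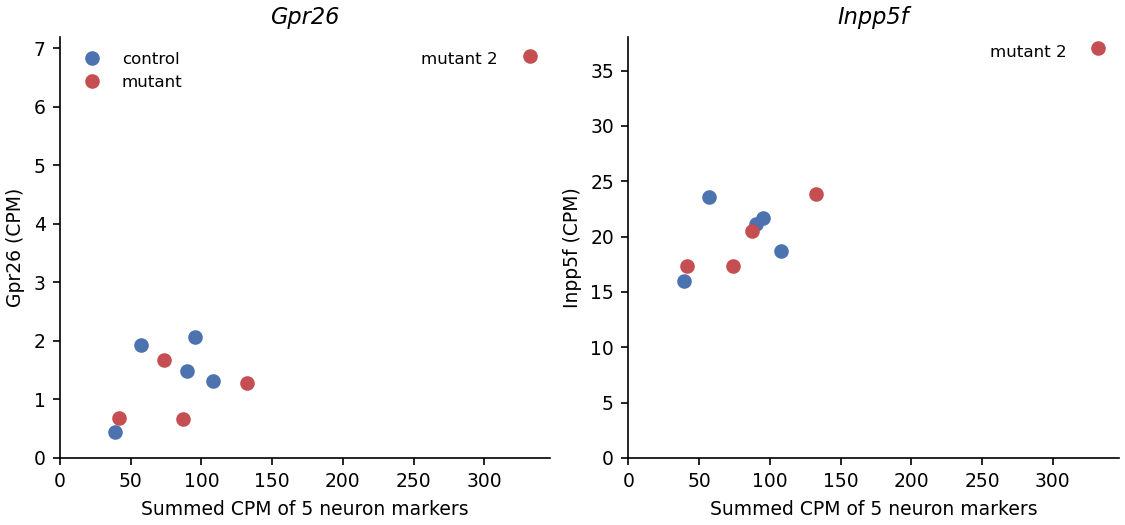
CPM of *Gpr26* and *Inpp5f* (vertical axes) against the summed CPM of 5 neuron markers (horizontal axes), 1 point per library. Mutant-labelled replicate 2, at 332.1 CPM of neuron markers, holds the highest value of both genes, 6.88 CPM and 37.0 CPM.

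No role was assigned to 24 genes, of which 9 were tested, with 6 positive and 3 negative log2 fold changes. Gm45501, a predicted transcript on 8 to 33 counts per library, was at 0.85, 0.51, 0.34, 0.78 and 0.55 CPM in control-labelled replicates 1 to 5 and at 0.56, 1.31, 1.24, 1.23 and 1.02 CPM in mutant-labelled replicates 1 to 5. In 4 of 5 mutant-labelled libraries it lay above all controls, a log2 fold change of 0.82 (SE 0.306, edgeR adjusted p = 0.623, exact permutation p = 0.0317). With the replicate block its unadjusted p was above 0.05 (log2 fold change 0.82, edgeR adjusted p = 0.762). Gm19514, which lies within *Adam12* on the same strand and shares no exon bases with it, had a log2 fold change of -0.48 (SE 0.231, edgeR adjusted p = 0.669), and *Cdcp3*, a gene with CUB domains, one of -0.88 (SE 0.705) at 0.13 to 4.3 CPM. Gm19514 reached an unadjusted p of 0.0383 without control-labelled replicate 2. Without control-labelled replicate 3, the highest library for both, the log2 fold changes were -0.26 for Gm19514 and -0.25 for *Cdcp3*.

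*Cpxm2* and *Fgfr2* both had a log2 fold change of 0.67 after rounding. The values parted without mutant-labelled replicate 4 (0.581 and 0.66) and without mutant-labelled replicate 5 (0.725 and 0.631). The 250 bases before their RefSeq start sites in GRCm38.p6 are printed 5′ to 3′ on the minus strand, with CpG dinucleotides in capitals. They are given as description, and a link between the 2 genes was not tested. The RefSeq start of *Fgfr2*, chr7:130266808, lies upstream of the outermost start of the 26 shorter GENCODE transcripts, chr7:130266263, so its sequence does not describe the bases next to those starts. The *Cpxm2* sequence is chr7:132154742-132154991 and the *Fgfr2* sequence chr7:130266809-130267058.
Cpxm2: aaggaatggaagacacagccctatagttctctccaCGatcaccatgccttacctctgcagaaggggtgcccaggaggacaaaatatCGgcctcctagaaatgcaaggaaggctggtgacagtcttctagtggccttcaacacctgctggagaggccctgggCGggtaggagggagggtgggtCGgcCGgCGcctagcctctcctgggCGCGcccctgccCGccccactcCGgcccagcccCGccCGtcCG
Fgfr2: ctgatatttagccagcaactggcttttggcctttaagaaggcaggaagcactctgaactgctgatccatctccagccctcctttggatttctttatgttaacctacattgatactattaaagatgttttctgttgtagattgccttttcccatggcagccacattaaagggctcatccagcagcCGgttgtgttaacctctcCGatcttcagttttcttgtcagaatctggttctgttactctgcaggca
The *Cpxm2* sequence holds 13 CpG dinucleotides and 64% G or C, and the *Fgfr2* sequence 2 CpG dinucleotides and 44%. Promoter entries of 300 bases were found for 30 of the 39 tested neighbours (41 entries), with a median of 18 CpG dinucleotides, against 7 over all 32851 entries. The 41 entries come only from genes that passed the filter on low counts, while all entries were taken whatever their level here. Neither this median nor the motif counts below can therefore be read as a trait of the locus. Letters searched on both strands were CTTTGA (TCF/LEF), TGANTCA (AP-1), CCGGAAG (ETS) and TATAAA, which occurred in 10, 5, 7 and 3 of the 41 entries and in 16.0%, 7.81%, 8.86% and 13.6% of all entries. The *Cpxm2* entry held none of them, nor did the 250 printed bases of *Fgfr2*.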

How the data were processed

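Bulk RNA-seq was made from the excised AF of 5 WT-labelled and 5 *Wnt1-Cre; Fgfr2fl/fl* libraries with a stranded kit and read as single reads. The authors deposited estimated counts per gene, not scaled between libraries, with the lowest row sum over the 10 libraries at 10. The submitters' processing notes name Partek and mm10. The aligner, the counter and whether counting used strand are not given in the sources used here, so genes that share exon bases with another gene (11 of those tested, 2 on the same strand and 9 on the opposite strand) are uncertain. Of the values, 67.3% were whole, and all were rounded. The fit used edgeR 4.0.16 (its expression filter, TMM, quasi-likelihood test, no covariate) in R 4.3.3, with Benjamini-Hochberg adjustment over 16267 genes and a threshold of 0.05. Log2 CPM used a prior count of 0.5. Single values were compared by exact permutation (two-sided, every way of drawing 5 of the 10 libraries). Sequences and positions came from GENCODE M21 and RefSeq, and 56 of the 57 genes matched GENCODE by symbol and 1, *Cdcp3*, by identical span. Counts were also simulated from the mean levels and library sizes here, with known changes and the same (median) dispersion for every gene. On these the test called 97% of genes moved by 1 log2 unit and 61.2% of genes moved by 0.5. Of its calls 3.7% were false. Real genes differ in dispersion, so these shares do not give the power of the test in the real data.

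The neighbours, the role groups and the marker lists were chosen with earlier results of these data known. Values per library were given for genes at an unadjusted p under 0.05 or with groups that do not overlap, for the 2 nearest tested genes on each side of *Fgfr2*, for *Ctbp2*, and for *Htra1*, *Adam12*, *Chst15*, *Cpxm2* and *Bag3*. *Inpp5f*, *Gpr26*, *Tacc2*, *Plekha1*, *Nsmce4a*, *Oat*, *Zranb1*, *Bub3*, *Acadsb*, *Fank1*, *Cdcp3* and Gm19514 were named after their values were seen. Alternatives were DESeq2 1.42.0 (size factors or Wald test), limma 3.58.1 voom, library size alone, other low-count filters, a replicate block, *Xist* as a covariate, removal of *Lars2* and the ribosomal RNA genes, and each library left out in turn. Unrounded counts were used only for the share of *Ctbp2* in its sum with *Fgfr2* and for that sum, so no fold change was refitted on them. A neuron score as a covariate was chosen after seeing the data. Endothelium, macrophage, osteoclast, erythroid and epidermis marker sums overlapped between groups, with no marker at an unadjusted p under 0.05. Of 4 chondrocyte markers 1 was higher (*Col2a1*), with sums of 251 to 312 CPM against 334 to 366 CPM.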

Additional observations from a re-analysis of the deposited data

Results flagged for a closer look

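In 24 genes, *Fgfr2* and 23 neighbours, the 48 groups of 5 libraries were searched for a single library far from the other 4, and 4 groups held one. Chance flags about 1 in 20 groups of genes chosen beforehand. *Gpr26*, *Nsmce4a* and Gm19514, below, were named after their values were seen, so that rate does not apply to this count. *Gpr26* was at 6.88 CPM in mutant-labelled replicate 2, against 0.66 to 1.67 CPM in the other mutant-labelled libraries, and *Wdr11* in that same library was at 28.7 CPM, against 34.4 to 36.2 CPM. That library also held 332.1 CPM of summed neuron markers, and the part of this in either value was not tested. *Nsmce4a* was at 32.9 CPM in control-labelled replicate 2, against 27.3 to 28.3 CPM in the other control-labelled libraries. Gm19514 was at 2.04 CPM in control-labelled replicate 3, against 0.99 to 1.27 CPM in the others. Without that library the log2 fold change of Gm19514 was -0.26 in place of -0.48, and without mutant-labelled replicate 2 that of *Wdr11* was 0.02 in place of -0.04.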

How the results depend on the processing

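*Cpxm2* kept its direction and an unadjusted p under 0.05 in every alternative fit, and the median inside the span stayed positive in every fit with all 10 libraries. The flanking median stayed below 0 only narrowly in some fits, at -0.005 by DESeq2's Wald test and -0.002 with the neuron score, where all genes stood at -0.003. Library size alone gave a median of 0.018 inside the span with all genes at -0.04, 1 neighbour lower at an unadjusted p under 0.05, and a log2 fold change of *Fgfr2* of 0.63 (edgeR adjusted p = 0.152). It also turned 4 values near 0, Gm5903 (-0.006), *Nsmce4a* (-0.024), *Oat* (-0.039) and *Bub3* (-0.029). DESeq2's Wald test called 1 neighbour at an adjusted p under 0.05. Without a filter 5 neighbours had an unadjusted p under 0.05, the added one being the pseudogene Gm15483 on at most 9 counts in a library, and *Fgfr2* was at 0.67 (adjusted p = 0.0557), and with *Xist* as a covariate at 0.66 (adjusted p = 0.0625). A minimum of 10 counts left 1 neighbour higher, since Gm45501 was then not tested. Same-numbered libraries did not deviate together (correlations from -0.211 to 0.139). With the replicate block 1 neighbour was higher, as Gm45501 was no longer under 0.05, *Fgfr2* was at 0.68 (adjusted p = 0.427) and *Oat* at -0.004. The neuron score as a covariate left 0 neighbours lower and turned *Wdr11* (0.005), Gm5903 (-0.145), *Inpp5f* (-0.057) and *Gpr26* (-0.51), and voom turned *Gpr26* (-0.12). Leaving out each library gave 2 to 5 neighbours at an unadjusted p under 0.05, 2 to 3 higher, 0 to 2 lower (0 without control-labelled replicate 3 or 4 or mutant-labelled replicate 2), 1 to 3 with groups apart, and *Fgfr2* at 0.63 to 0.75. Ranges that crossed 0 were -0.118 to 0.189 for Gm5903, -0.041 to 0.024 for *Ate1*, -0.051 to 0.024 for *Wdr11*, -0.084 to 0.025 for *Zranb1*, -0.01 to 0.075 for *Nsmce4a*, -0.056 to 0.059 for *Oat*, -0.025 to 0.301 for *Inpp5f*, -0.43 to 0.87 for *Gpr26* and -0.003 to 0.029 for *Bub3*. The cause was not tested, apart from the filter on Gm45501. For the fold changes of single neighbours, 429 of 456 alternative values kept direction and side of the threshold. For *Fgfr2*, the counts, the medians and the *Ctbp2* values, 149 did, 17 moved and 12, all of *Fgfr2*, lost the threshold.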
